A study of Mus musculus with 12 samples.

Results

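The genes described here are 40 cell cycle and DNA replication genes, chosen by name from the parts of the cell division machinery: 8 cyclins, 4 cyclin dependent kinases, 5 kinase inhibitors, 6 genes of the retinoblastoma family and its E2F partners, 10 genes of replication licensing and the replication fork, and 7 genes of mitosis and proliferation. Of these, 39 were measured, by 87 of the 45037 probe sets tested, since no probe set carries the symbol Ccnb1 alone and that gene was not analysed here. The arrays read 18193 genes in all. They hold RNA of mouse ES cells of the C57BL/6 background, WT or lacking the telomerase RNA gene (Terc-/-, hereafter KO), with 2 arrays in each of 6 groups. At day 0 the cells were undifferentiated ES cells, the WT lines N12 and N33 at passage 12 and the KO lines F35 and A49 at passage 11, labelled G3/4. At days 8 and 15 they had differentiated through embryoid bodies, which grew for 4 days in hanging drops without LIF and were then plated. The labels name no treatment beside differentiation. The labels name no line for the later days and call the replicates biological, and where replicates share a line the p-values measure only the spread between those samples. Terc has no probe set of its own symbol, so the genotype rests on the labels.

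D cyclins with Cdk4 or Cdk6, and then E cyclins with Cdk2, phosphorylate the retinoblastoma proteins, which releases E2F factors to transcribe the genes of S phase. Before replication each origin is licensed, when Cdc6 and Cdt1 load the ring of Mcm proteins that later becomes the replicative helicase. Mouse ES cells are known for a short G1 phase, high levels of E and A cyclins and replication proteins and little of the Ink4 inhibitors, and they lengthen G1 when they differentiate.

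An array gives each probe set a relative intensity in arbitrary units, and each gene was read from its brightest probe set that carries no other symbol. Day 0 was on a scale of its own (median intensities 114 to 117 against 50.6 to 53.1), so genotypes were compared within a day and time only from day 8 to day 15. The members were bright: the median member lay between percentiles 91.6 and 94.8 of all probe sets on the 12 arrays. Log2 differences are given with their standard error from limma, fitted over all 12 arrays, with Benjamini-Hochberg adjusted p-values taken across every probe set tested. A member rose or fell, or passed, where its adjusted p was under 0.05 in this fit. Other fits, such as those with an array left out, are named where they are used. The WT day 8 arrays stood apart from each other. Replicate 1 was above replicate 2 in all 10 licensing genes and all 7 mitosis genes, by a median of 0.38 and 0.50 on the log2 scale, while the summed intensity of 11 fibroblast markers was 7874 in replicate 1 and 29349 in replicate 2.

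Between day 8 and day 15, 15 of 39 members fell in WT cells and 4 rose, against 11.3% of all genes called lower and 9.66% called higher. The members that fell were Ccna2, Ccne1, Ccne2, Cdk2, Mcm2, Mcm3, Mcm4, Mcm5, Mcm6, Mcm7, Pcna, Gmnn, Cdc6, Cdc20 and Bub1, and those that rose were Ccnd3, Cdkn1b, Cdkn2c and Rbl2. The median log2 change of the 39 members was -0.37, beside 0.01 over all genes. The median member was brighter than most probe sets, and bright probe sets were also compared. With only the 22377 brighter probe sets kept, 18 of 38 members and 6479 of all kept probe sets passed in WT cells, in either direction. In KO cells 0 members passed over the same days, where 0% of all genes were called lower and 0.0275% higher. At an unadjusted p under 0.05, limma gave 12 members and 2097 of all genes there, and the members' median change was -0.15. All 15 members that fell in WT cells had negative changes in KO cells too, between -0.69 and -0.11. The counts above rest on 1 estimate of the spread shared by all 12 arrays. With the 4 arrays of each genotype fitted alone, 0 members passed in WT cells and 5, all lower at day 15, in KO cells. Of all probe sets, 367 were called in WT cells and 1273 in KO cells in those fits.

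**Figure D1:**
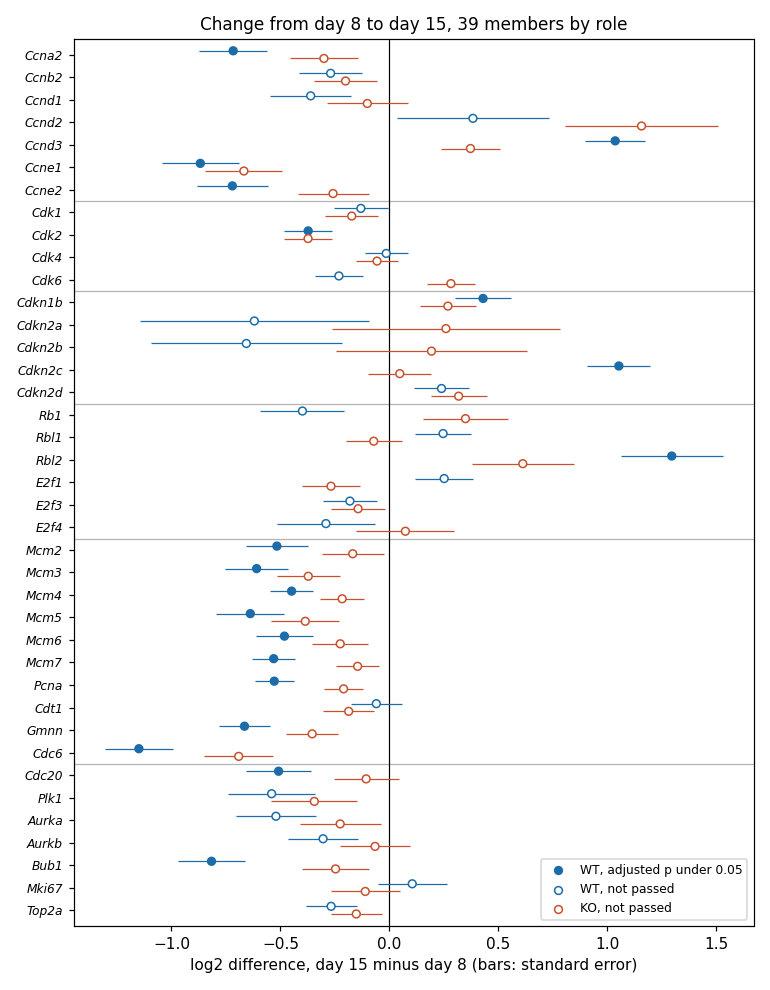
Log2 change from day 8 to day 15 of the 39 measured members (x axis) in WT cells (blue) and KO cells (orange), grouped by role from cyclins at the top to mitosis genes at the bottom, with the standard error as bars. Filled points have an adjusted p under 0.05, which 19 WT points and 0 KO points reached, and the licensing block lies left of 0 in both genotypes.

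The genotypes were compared on each day. At day 0 none of the members passed, and 0.022% of all genes were called higher and 0.011% lower in KO cells. At an unadjusted p under 0.05, 2 members and 1309 of all genes passed. At day 8 a single member, Cdkn2d, was lower in KO cells, with 0.77% of all genes called lower and 0.77% called higher. At day 15, 5 members were higher in KO cells (Cdk6, Rb1, Mcm5, Mcm7, Cdc20) and 5 were lower (Ccnd3, Cdk4, Cdkn2c, Cdkn2d, Rbl2). Over all genes, 8.77% were called higher and 8.31% lower at that day. The share of members called at day 15 was therefore near that of all genes in either direction, and the members' median difference was 0.12, beside 0.04 for all genes. KO against WT at day 15 and day 15 against day 8 in WT share the WT day 15 arrays, so their values are given side by side and are not independent.

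**Figure D2:**
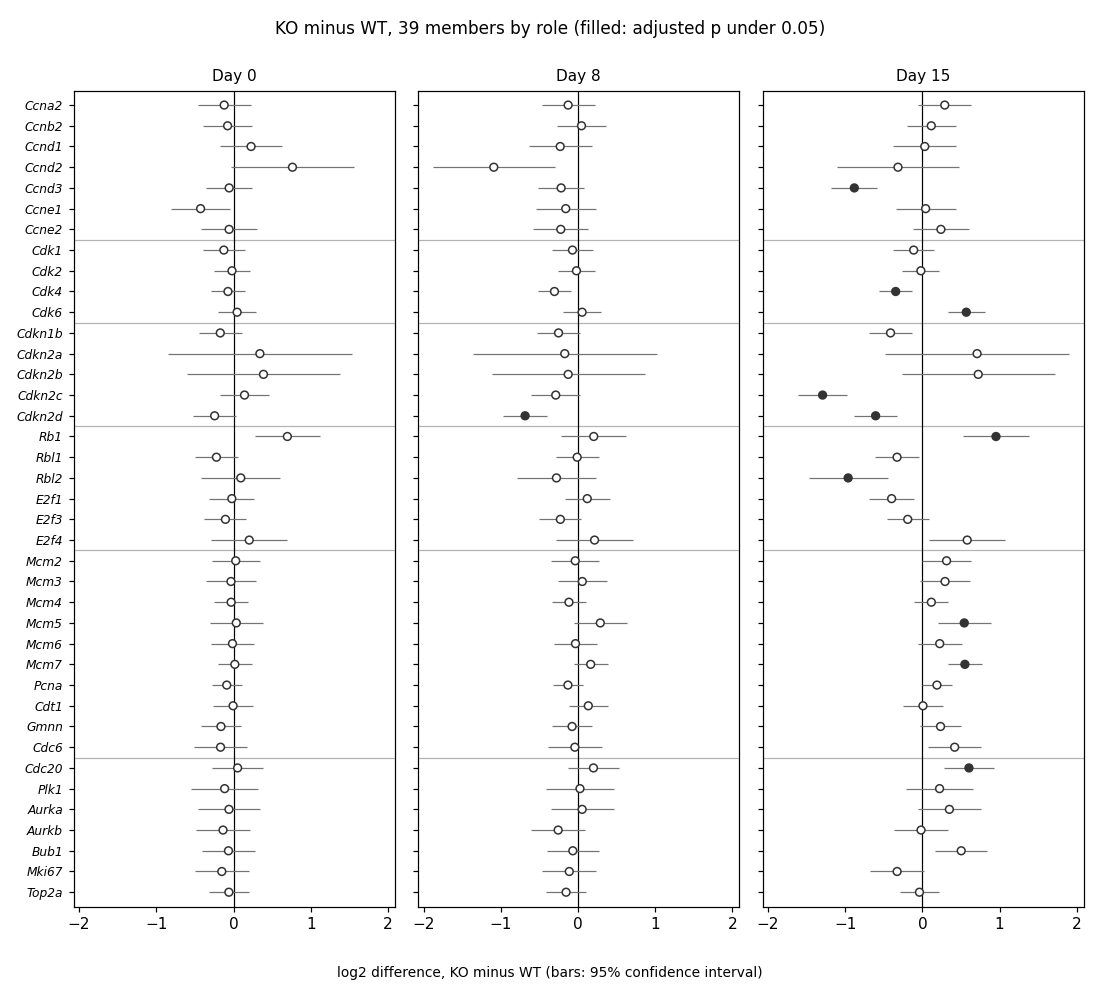
Log2 difference KO minus WT of the 39 measured members at days 0, 8 and 15 (x axes), grouped by role from cyclins at the top to mitosis genes at the bottom, with 95% confidence intervals as bars. Filled points have an adjusted p under 0.05: 0 at day 0, 1 at day 8 and 10 at day 15.

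Of the 3 D cyclins, Ccnd3 alone passed from its brightest probe set. This gene, a partner of Cdk4 and Cdk6 in G1, read 878 and 1178 on the WT day 8 arrays and 2168 and 2005 at day 15, and in KO cells 843 and 906, then 1049.7 and 1219. All 4 later KO arrays and both WT day 8 arrays thus lay below the WT day 15 arrays. It rose 2.05-fold in WT cells (1.04 ± 0.14, adjusted p = 0.000799) and was lower in KO cells at day 15 (-0.88 ± 0.14, adjusted p = 0.00219), and both calls held with each of the 12 arrays left out in turn. Of its other 2 probe sets 1 was called over time in WT cells (0.68, against 0.21) and neither at day 15 (-0.46 and -0.28). At day 0 its levels overlapped, with 2362 and 2204 in WT cells and 2150.1 and 2239.9 in KO cells. Ccnd2 was spread between replicates, with 2003 and 3658 in WT cells and 1089 and 1485 in KO cells at day 8, and 3119.8 and 3993 in WT and 2365 and 3397 in KO cells at day 15. Its difference at day 8 was -1.09 ± 0.35 (adjusted p = 0.201) and its change in KO cells 1.16 ± 0.35 (adjusted p = 0.305), neither past the threshold, and its 7 probe sets all had positive changes in WT cells, from 0.23 to 0.61. Ccnd1 read 1579 and 980.2 at day 8 and 975 and 961 at day 15 in WT cells, and this brightest probe set did not pass (-0.36 ± 0.18, adjusted p = 0.236). Its other probe sets did fall in WT cells, by 0.73 and 1.11 on the log2 scale, so the Ccnd1 call depends on the probe set read.

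The E and A cyclins, which start and carry S phase, ran the other way from Ccnd3. Ccne1 read 1349 and 1128 in WT cells at day 8 and 687 and 666 at day 15, and 1162 and 1052 at day 8 and 697 and 694 at day 15 in KO cells. The day 15 arrays of both genotypes lay below every day 8 array, and at day 15 the genotypes were within 0.04 of each other on the log2 scale. Ccne1 fell in WT cells (-0.87 ± 0.18, adjusted p = 0.00711) and its change in KO cells of -0.67 ± 0.18 did not pass (adjusted p = 0.239). Ccne2 fell from 152 and 121 to 72.0 and 94.3 in WT cells (-0.72 ± 0.16, adjusted p = 0.012), a call that ended without WT day 8 replicate 1 or WT day 15 replicate 1, where its adjusted p reached 0.104. In KO cells it read 114 and 119 at day 8 and 99.2 and 95.4 at day 15. Ccna2, which partners Cdk2 and Cdk1, fell from 1661 and 1136 to 766 and 912 in WT cells (-0.72 ± 0.16, adjusted p = 0.0103). In KO cells it went from 1291 and 1225 to 970.5 and 1074, and at day 15 both KO arrays were above both WT arrays by a difference that did not pass (0.29 ± 0.16, adjusted p = 0.278). The Ccna2 call ended without WT day 15 replicate 1, at an adjusted p of 0.088, and with the mean over its probe sets. Its second probe set read 1223 and 896 in WT cells at day 8 and 958 and 1056 at day 15, with 869 and 975 in KO cells at day 15. That probe set was not called over time in WT cells (-0.06) and was not higher in KO cells at day 15 (-0.13), so the Ccna2 call too depends on the probe set read. Ccnb2, a mitotic cyclin, did not pass in any comparison, and its WT day 8 arrays (1164 and 812) overlapped its WT day 15 arrays (775 and 839).

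Of the 4 kinases, Cdk6 parted the genotypes most clearly. It read 489 and 452 in WT and 496 and 479 in KO cells at day 8, then 408 and 392 in WT and 579 and 607 in KO cells at day 15. Its levels thus overlapped at day 8, and at day 15 the KO arrays were the highest of the later 8 and the WT arrays the lowest. Cdk6 was 1.48-fold higher in KO cells at day 15 (0.57 ± 0.11, adjusted p = 0.00677), and its 3 probe sets were all positive there, 2 of them called. Cdk4, the other partner of the D cyclins, read lower in KO cells on both later days, at 2364 and 2041 in WT and 1638 and 1821 in KO cells at day 15 and 2291 and 2149.8 in WT and 1749 and 1847 in KO cells at day 8. The groups did not overlap on either day. Its difference passed at day 15 (-0.35 ± 0.10, adjusted p = 0.0403) but not at day 8 (-0.30 ± 0.10, adjusted p = 0.184), and the day 15 call held in only 3 of 12 fits with an array left out, with adjusted p up to 0.262. Cdk2, the kinase of the E and A cyclins, changed by -0.37 ± 0.11 in WT cells (adjusted p = 0.0384) and -0.37 ± 0.11 in KO cells (adjusted p = 0.268). Only the WT fall passed, and it held in 2 of 12 fits with an array left out, with adjusted p up to 0.139. The second Cdk2 probe set was not called over time, at -0.10 in WT and -0.006 in KO cells. With the mean over probe sets the Cdk2 call ended. Cdk1, the kinase that drives mitosis, did not pass in any comparison, with all later arrays between 1356 and 1882.

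Among the inhibitors, the Ink4 gene Cdkn2c, whose product blocks Cdk4 and Cdk6, had the largest difference of all members at day 15. It read 86.6 and 96.9 in WT and 82.3 and 68.4 in KO cells at day 8, and 209.5 and 172 in WT and 75.1 and 80.0 in KO cells at day 15. Both WT day 15 arrays lay above all the other later arrays, the KO day 15 arrays lay within the range of the KO day 8 arrays, and all 4 day 0 arrays lay between 97.3 and 114 on their own scale. Cdkn2c rose 2.07-fold in WT cells (1.05 ± 0.14, adjusted p = 0.000942) and was 2.45-fold lower in KO cells at day 15 (-1.29 ± 0.14, adjusted p = 0.000397). Both calls held with each array left out. Its change in KO cells was 0.05 ± 0.14 (adjusted p = 0.946), and the difference between the genotypes' changes, -1.01 ± 0.20, had the smallest adjusted p of the members for that test and did not pass (adjusted p = 0.0693).

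Cdkn2d, the related Ink4 gene, was lower in KO cells on both later days, and its changes over time (0.24 ± 0.13 in WT and 0.32 ± 0.13 in KO cells) did not pass. It read 245 and 261 in WT and 146 and 169 in KO cells at day 8, and 295 and 302 in WT and 189 and 204 in KO cells at day 15. All 4 KO arrays lay below all 4 WT arrays. The difference passed at day 8 (-0.68 ± 0.13, adjusted p = 0.0322) and at day 15 (-0.61 ± 0.13, adjusted p = 0.0106), while at day 0 it was -0.24 ± 0.13 (adjusted p = 0.652). The day 15 call ended only without KO day 15 replicate 1 (adjusted p = 0.0951). The day 8 call held in 5 of 12 such fits and ended, among others, without either KO day 8 array, with adjusted p up to 0.261. Cdkn1b, which inhibits cyclin-kinase complexes broadly, read 319 and 298 at day 8 and 411 and 419 at day 15 in WT cells and 253 and 265 at day 8 and 323 and 300.4 at day 15 in KO cells. By this probe set the KO arrays were the lower on both days. Its rise in WT cells passed (0.43 ± 0.13, adjusted p = 0.041) but held in only 2 of 12 fits with an array left out, with adjusted p up to 0.126, and its difference at day 15 did not pass (-0.41 ± 0.13, adjusted p = 0.0558). Its dimmer probe set was called in both comparisons, 0.91 in WT cells over time and -0.78 in KO against WT cells at day 15. At day 8 the dimmer probe set was higher in KO cells (0.30), and over time in KO cells it changed by -0.16, neither called. The brightest probe set went the other way in both.

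Cdkn2a and Cdkn2b, neighbouring genes known for their induction in ageing cultures, had widely spread WT replicates. Cdkn2a read 174 and 547 on the 2 WT day 8 arrays and 129 and 313 at day 15, with all 4 later KO arrays between 262 and 387. Cdkn2b read 268 and 814 at day 8 and 238 and 369 at day 15 in WT cells, with the KO arrays between 385 and 548. At day 8 the WT arrays were the lowest and the highest for both genes, so the KO arrays lay between them. At day 15 Cdkn2a overlapped between genotypes and both KO arrays of Cdkn2b lay above both WT arrays, and WT replicate 2 was the higher on both days. The summed fibroblast markers were higher in replicate 2 at day 8 (7874 and 29349) but not at day 15 (83305 and 62755), and their part in these levels was not tested. Neither gene passed in any comparison. Their differences at day 15 were 0.71 ± 0.52 (95% interval -0.48 to 1.90) and 0.72 ± 0.44 (95% interval -0.27 to 1.71).

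The retinoblastoma family went in opposite directions at day 15. Rb1 read 112 and 146 in WT and 246 and 248 in KO cells at day 15, after 133 and 212 in WT and 194 and 193 in KO cells at day 8. Its day 0 arrays gave 526 and 542 in WT and 861 and 872 in KO cells. The KO arrays were above the WT arrays at days 0 and 15 and inside the WT range at day 8. Rb1 was 1.93-fold higher in KO cells at day 15 (0.95 ± 0.19, adjusted p = 0.00859), its second probe set was called too (0.60), and the day 0 difference of 0.70 ± 0.19 did not pass (adjusted p = 0.235). The day 15 call ended without WT day 15 replicate 1 or either KO day 15 array, with adjusted p up to 0.0792.

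Rbl2, which encodes the related pocket protein that binds E2f4 in resting cells, read 20.5 and 38.7 in WT and 24.1 and 22.4 in KO cells at day 8, and 70.3 and 68.2 in WT and 36.2 and 34.9 in KO cells at day 15. The day 8 values and the KO day 15 values lay below the median intensity of their arrays, so the folds are those of a dim probe set. Rbl2 rose in WT cells (1.30 ± 0.23, adjusted p = 0.00394) and was lower in KO cells at day 15 (-0.96 ± 0.23, adjusted p = 0.021). The other Rbl2 probe set, dimmer still, was called in neither comparison, with a WT change of 0.01 and a day 15 difference of -0.25. The rise of the brightest probe set held with each array left out, and its day 15 call ended without any 1 of the 4 day 15 arrays, with adjusted p up to 0.113. Rbl1 and the factors E2f1, E2f3 and E2f4 did not pass in any comparison. Of these, E2f1 came nearest, with 245 and 220.0 in WT and 177 and 175 in KO cells at day 15 (-0.40 ± 0.13, adjusted p = 0.076).

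**Figure D3:**
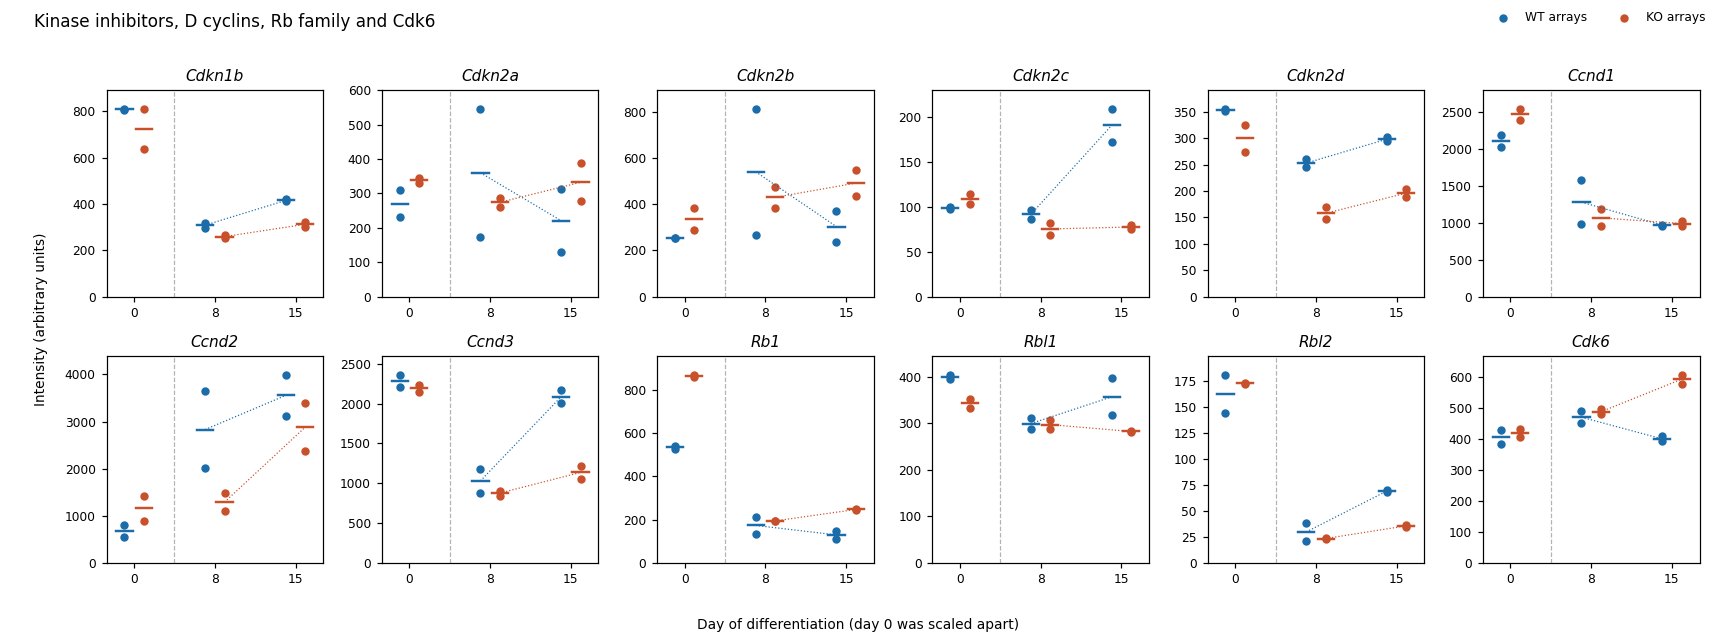
Intensity (y axes, arbitrary units from 0) of the 5 kinase inhibitors, the 3 D cyclins, the 3 retinoblastoma family genes and Cdk6 on each array by day of differentiation (x axes), with WT arrays in blue, KO arrays in orange, short bars for group means and dotted lines from day 8 to day 15. Cdkn2c, Ccnd3 and Rbl2 rise in WT cells and lie lower in KO cells at day 15, Rb1 and Cdk6 lie higher in KO cells, and the WT points of Cdkn2a and Cdkn2b are far apart; day 0 lies left of the dashed line since it was scaled apart.

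The licensing genes fell nearly as a block in WT cells, so the letters of their promoters are shown first. RefSeq promoters on GRCm38.p6, each from 250 bases before to 50 after the annotated start, were found for 31 of the 40 genes, 36 promoters in all. The letters searched were, for E2F sites, TTTCCCGC, TTTGGCGC, TTTCGCGC and TTTGCCGC, for the cell cycle homology region (CHR) of mitotic genes, TTTGAA and TTCGAA, and the CCAAT box, on both strands. E2F letters were found in 6 of 9 licensing promoters (Mcm3, Mcm5, Mcm6, Mcm7, Cdt1 and Cdc6), in 11 of 36 member promoters and in 2.26% of all 32851 promoters. They were in 0 of 6 mitosis promoters and 0 of 5 cyclin promoters. CCAAT letters were in 7 of the 9 licensing promoters and in 37.4% of all promoters. Of the licensing genes with E2F letters that fell in WT cells, 3 hold them from 120 bases before to 30 after an annotated start, and those stretches are shown, all from the minus strand. They lie at chr1:20820283-20820432 for Mcm3, chr1:128359676-128359825 for Mcm6 and chr5:138171854-138172003 for the upstream of 2 annotated starts of Mcm7. Capitals mark E2F and CCAAT letters on either strand.
Mcm3: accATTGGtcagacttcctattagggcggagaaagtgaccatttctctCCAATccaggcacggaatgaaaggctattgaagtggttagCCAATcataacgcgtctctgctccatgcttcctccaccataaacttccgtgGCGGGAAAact
Mcm6: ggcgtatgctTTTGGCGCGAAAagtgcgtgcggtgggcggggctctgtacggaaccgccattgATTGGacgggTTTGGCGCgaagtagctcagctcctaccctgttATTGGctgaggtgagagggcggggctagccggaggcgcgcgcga
Mcm7: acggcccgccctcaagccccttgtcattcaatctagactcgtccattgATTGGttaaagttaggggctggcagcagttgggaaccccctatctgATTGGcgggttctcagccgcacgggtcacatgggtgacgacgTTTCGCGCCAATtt
In Mcm6 the first capitals are 2 overlapping E2F matches on opposite strands, and in Mcm7 the last E2F match overlaps a CCAAT match. A match is a run of letters and not a shown binding site.

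All 6 Mcm helicase genes fell in WT cells between day 8 and day 15, by log2 changes from -0.64 for Mcm5 to -0.45 for Mcm4. Mcm7 read 6560.3 and 5307 at day 8 and 3798 and 4390.2 at day 15 in WT cells, and 6732 and 6496 at day 8 and 5933 and 6019 at day 15 in KO cells. The WT day 15 arrays were the lowest of the later 8, and the KO arrays of both days lay above the lower WT day 8 array. Mcm7 fell in WT cells (-0.53 ± 0.10, adjusted p = 0.00473) and at day 15 stood 1.46-fold higher in KO cells (0.55 ± 0.10, adjusted p = 0.00501). All 4 of its probe sets were called in both comparisons, and both calls held with each array left out. Mcm5 read 3998 and 2552 at day 8 and 2053 and 2051 at day 15 in WT cells, and 4057 and 3755 at day 8 and 3019 and 2953 at day 15 in KO cells. It fell in WT cells (-0.64 ± 0.16, adjusted p = 0.0185), a call that ended without either WT day 15 array (adjusted p up to 0.088). Its difference at day 15 (0.54 ± 0.16, adjusted p = 0.0446) passed narrowly, was near that of its other 2 probe sets, which were not called (0.51 and 0.55), and held in 2 of 12 fits with an array left out, with adjusted p up to 0.208. The other 4 Mcm genes had positive differences at day 15, from 0.12 to 0.31, that did not pass. In KO cells the changes of the 6 genes over time were all negative, from -0.39 to -0.15, and none passed. Among the WT falls, those of Mcm4 and Mcm7 held with each array left out, that of Mcm3 ended without WT day 15 replicate 1 (adjusted p = 0.0756), and those of Mcm2 and Mcm6 held in 4 and 9 of the 12 such fits. Over time in WT cells 1 of 5 Mcm3 probe sets (-0.24) and 1 of 3 Mcm6 probe sets (-0.08) were not called.

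Cdc6, the loader of the Mcm ring, fell most of the licensing genes. It read 542 and 420.5 in WT cells at day 8 and 184 and 252 at day 15, a 2.22-fold fall (-1.15 ± 0.16, adjusted p = 0.000938). In KO cells it read 471 and 457 at day 8 and 286 and 289 at day 15. Every day 15 array lay below every day 8 array, and at day 15 the WT arrays lay below the KO arrays. Neither its change in KO cells (-0.69 ± 0.16, adjusted p = 0.195) nor its difference at day 15 (0.42 ± 0.16, adjusted p = 0.113) passed. Gmnn, the inhibitor of Cdt1, fell from 2276 and 1928 to 1208 and 1444 in WT cells (-0.67 ± 0.12, adjusted p = 0.00372) and went from 2018 and 1957 to 1524 and 1585 in KO cells (-0.35 ± 0.12, adjusted p = 0.328). Pcna, the sliding clamp of the fork, fell from 6137 and 5084 to 3937 and 3809 in WT cells (-0.53 ± 0.09, adjusted p = 0.00276) and went from 5129.7 and 5079 to 4230.4 and 4600.3 in KO cells (-0.21 ± 0.09, adjusted p = 0.425). The WT falls of Cdc6, Gmnn and Pcna held with each array left out. Cdt1, the partner of Cdc6, was the exception in the block: it read 4133 and 3127 at day 8 and 3487 and 3409 at day 15 in WT cells (-0.06 ± 0.12, 95% interval -0.32 to 0.20) and its genotypes overlapped on both later days. Its 3 probe sets ran from -0.37 to 0.001 in WT cells over time, and none was called. Over the 10 licensing genes the median change was -0.53 in WT cells, where 9 fell, and -0.22 in KO cells, where 0 passed. At day 15 all 10 differences were positive by the brightest probe sets, with a median of 0.26, and 2 passed. That of Cdt1 was only 0.0069, and 2 of its 3 probe sets were negative there. These arrays read RNA of whole cultures, in which fewer cells of a type and less RNA per cell cannot be told apart.

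**Figure D4:**
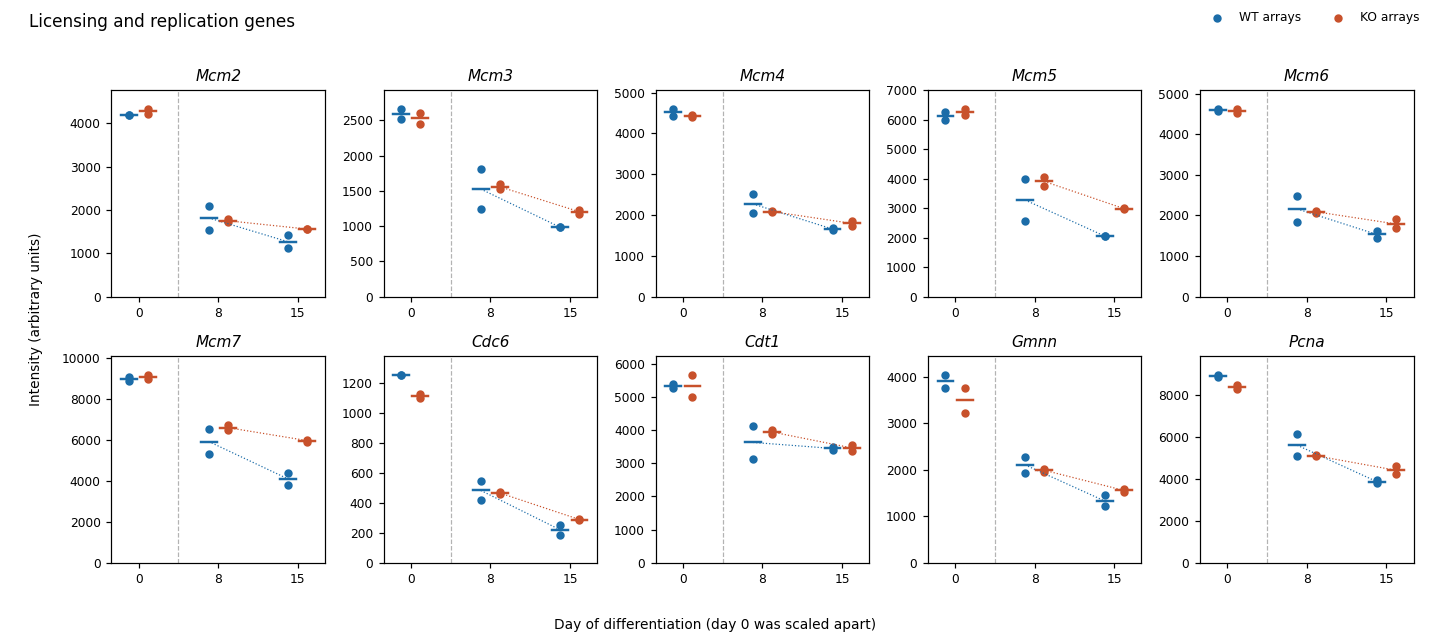
Intensity (y axes, arbitrary units from 0) of the 10 licensing and replication genes on each array by day of differentiation (x axes), with WT arrays in blue, KO arrays in orange, short bars for group means and dotted lines from day 8 to day 15. The WT day 8 points are spread and the WT day 15 points lie lowest for Mcm5 and Mcm7; day 0 lies left of the dashed line since it was scaled apart.

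Of the 7 mitosis genes 2 fell in WT cells, with a median change of -0.51, and 0 passed in KO cells, with a median of -0.15. The promoters of the 2 that fell in WT cells are shown as examples with CHR letters, which were in 6 of 6 mitosis promoters, 13 of 36 member promoters and 19.2% of all promoters. CCAAT letters were in 6 of 6 mitosis promoters. The stretches, from the minus strand, lie at chr4:118437314-118437463 for Cdc20 and chr2:127831830-127831979 for Bub1, again from 120 bases before to 30 after the annotated start, and capitals mark CHR and CCAAT letters on either strand.
Cdc20: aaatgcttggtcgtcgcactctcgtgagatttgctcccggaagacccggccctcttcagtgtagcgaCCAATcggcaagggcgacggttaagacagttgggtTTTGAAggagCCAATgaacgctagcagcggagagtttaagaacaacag
Bub1: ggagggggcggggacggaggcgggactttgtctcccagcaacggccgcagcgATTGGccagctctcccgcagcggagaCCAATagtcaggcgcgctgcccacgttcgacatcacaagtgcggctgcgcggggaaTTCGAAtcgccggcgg
Both hold CHR letters and a pair of CCAAT matches, and neither holds E2F letters.

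Cdc20, which activates the anaphase promoting complex, read 5053 and 3722 in WT and 4948 and 5020.4 in KO cells at day 8, and 2649.7 and 3507 in WT and 4650.4 and 4605 in KO cells at day 15. The WT day 15 arrays were the lowest of the later 8, and all 4 later KO arrays lay between 4605 and 5020.4. Cdc20 was 1.52-fold higher in KO cells at day 15 (0.60 ± 0.15, adjusted p = 0.0233), a call that ended without WT day 15 replicate 1 or either KO day 15 array, with adjusted p up to 0.172. Its fall in WT cells (-0.51 ± 0.15, adjusted p = 0.0401) held in 4 of 12 fits with an array left out, with adjusted p up to 0.288, while its change in KO cells was -0.11 ± 0.15 (adjusted p = 0.857). Bub1, a spindle checkpoint kinase, fell from 1679 and 1228 to 746 and 891 in WT cells (-0.82 ± 0.15, adjusted p = 0.00477) and held with each array left out. In KO cells it read 1431 and 1313 at day 8 and 1215 and 1097 at day 15, above both WT arrays at day 15 by a difference that missed the threshold (0.50 ± 0.15, adjusted p = 0.0544). Its second probe set was not called over time in WT cells (-0.16).

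The remaining mitosis and proliferation genes did not pass in any comparison. Plk1 and Aurka, kinases of mitotic entry and the spindle poles, had changes in WT cells of -0.54 ± 0.20 (adjusted p = 0.093) and -0.52 ± 0.19 (adjusted p = 0.0832). Plk1 read 1272 and 729.7 on the WT day 8 arrays and Aurka 882 and 588, so for both genes the day 8 replicates differed by more than replicate 2 differed from the day 15 mean. Mki67, the usual marker of cycling cells, read 2477 and 1612 at day 8 and 2203 and 2095 at day 15 in WT cells, and 1861 and 1836 at day 8 and 1671 and 1753 at day 15 in KO cells. Its WT change was 0.10 ± 0.16 (95% interval -0.24 to 0.45), and at day 15 both KO arrays lay below both WT arrays (-0.33 ± 0.16, adjusted p = 0.218). Top2a, the topoisomerase that untangles replicated chromosomes, changed by -0.27 ± 0.12 in WT cells (adjusted p = 0.159), and Aurkb by -0.30 ± 0.16 (adjusted p = 0.253). Mki67 thus had a positive WT change, with an interval that spans 0, beside the falls of 9 licensing genes. By their brightest probe sets, the other 6 mitosis and proliferation genes had negative WT changes. Both WT day 15 arrays of Mki67 lay between its WT day 8 arrays, so its sign depends on which day 8 array is read.

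Other genes of the pathway were read from 4 further lists. Their counts stand beside the shares over all genes, in WT cells from day 8 to day 15 11.3% called lower and 9.66% higher. At day 15, 8.77% of all genes were called higher and 8.31% lower in KO cells. Of 28 genes of origin recognition and the replication fork, 11 fell and 0 rose in WT cells between day 8 and day 15, with a median change of -0.41, and 0 passed in KO cells. At day 15, 7 of them were higher in KO cells (Orc1, Orc2, Orc4, Orc5, Mcm10, Dbf4 and Rfc5) and 0 were lower. Orc1, the largest subunit of the origin recognition complex, fell by 1.40 on the log2 scale in WT cells (adjusted p = 0.000271) and at day 15 the KO level was higher by 0.58 (adjusted p = 0.0278), with a change of -0.75 in KO cells that did not pass (adjusted p = 0.154). Mcm10, a fork protein, fell by 1.12 in WT cells and at day 15 was higher in KO cells by 0.69. Of 5 measured genes of nucleotide supply, Dut, which removes dUTP, and Rrm2, a subunit of ribonucleotide reductase, fell in WT cells by 1.33 and 0.75 on the log2 scale. At day 15 Dut was higher in KO cells (0.59) and Tk1, thymidine kinase, lower (-0.68).

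Of 14 further genes of G1 to S control, 6 fell and 1 rose in WT cells over time, and at day 15 in KO cells 2 were higher and 3 lower. The inhibitor Cdkn1c rose in WT cells (1.40, adjusted p = 0.00333) and was lower in KO cells at day 15 (-1.44, adjusted p = 0.00363), the same directions as Cdkn2c. Mybl2, a factor for genes of S phase and mitosis, fell by 1.31 in WT cells and at day 15 the KO level was higher by 1.61. Of 25 further mitosis genes, 6 fell and 0 rose in WT cells. Only Mad2l1, a spindle checkpoint protein, passed between genotypes, lower in KO cells at day 8 (-1.07, adjusted p = 0.0396) and at day 15 (-0.81, adjusted p = 0.0283).

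Markers of cell types were read beside these genes. Over all genes, 8.77% were called higher and 8.31% lower in KO cells at day 15. In WT cells from day 8 to day 15, 11.3% were called lower and 9.66% higher. Of 10 pluripotency markers, 9 were higher in KO cells at day 15 and 8 fell in WT cells from day 8 to day 15. Their summed intensity was 2609 and 7875 on the WT day 15 arrays, 19581 and 18350.3 on the KO day 15 arrays, and at day 8 16272 and 13974 in WT and 23725 and 22044 in KO cells. At day 8, where Cdkn2d was called, all 10 had positive differences (KO minus WT), with a median of 0.80, and 1, Esrrb, passed. The fibroblast sums at day 8 were 7874 and 29349 in WT and 5066 to 5429.8 in KO cells. Of 11 fibroblast markers, 8 were lower in KO cells at day 15 and 6 rose in WT cells, with sums of 83305 and 62755 in WT and 12813 and 18754 in KO cells at day 15. Of 7 blood cell markers, 5 were lower in KO cells at day 15, with sums of 3587 and 2126 in WT cells and 204 and 187 in KO cells. Of 6 neuron markers, 2 were higher and 1 lower in KO cells at day 15, with sums from 341 to 472 in WT and from 2259 to 2731 in KO cells, and of 6 striated muscle markers 1 was lower. At day 0 the fibroblast sums, which can include feeder cells, were 3453 and 5704 in WT and 6163 and 9458 in KO cells, and 0 of the 11 markers passed. The marker sums and the members' levels are set side by side here. At day 8 the pluripotency sums parted the genotypes. The licensing sums there overlapped, at 25067 to 32534 in WT and 29103 to 29892 in KO cells. WT replicates 1 and 2 had licensing sums of 32534 and 25067 beside fibroblast sums of 7874 and 29349. At day 15 the pluripotency, fibroblast and licensing sums each parted the genotypes. The part of the mix in the members' differences was not tested. The day 0 cells, labelled as ES cells, had pluripotency sums of 64792 to 68522 on their own scale.

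**Figure D5:**
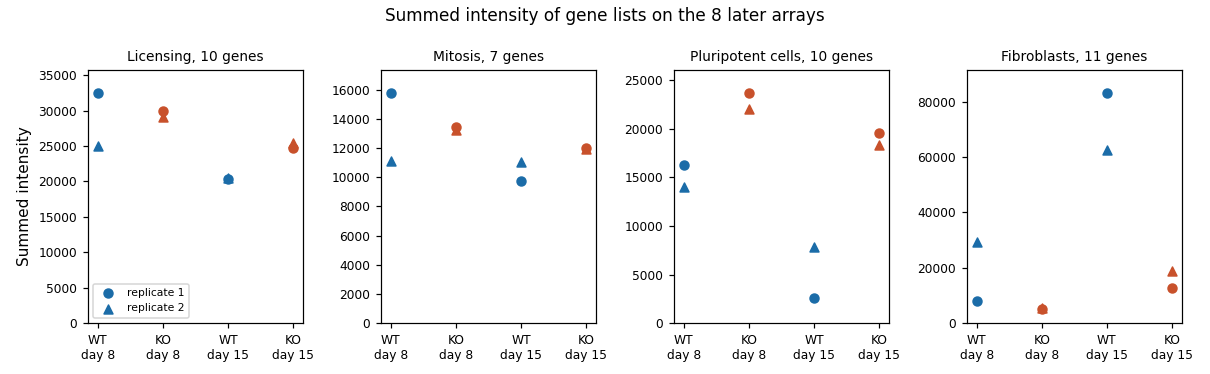
Summed intensity (y axes, arbitrary units from 0) of the 10 licensing genes, the 7 mitosis genes, 10 pluripotency markers and 11 fibroblast markers on the 8 later arrays (x axes by group), with circles for replicate 1 and triangles for replicate 2, WT in blue and KO in orange. The 2 WT day 8 arrays differ in the licensing, mitosis and fibroblast sums, and the WT day 15 arrays have the lowest licensing and pluripotency sums.

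Whether the change over time itself differed between genotypes was tested as an interaction. None of the members passed, where 0.225% of all genes were called higher and 0.434% lower, and at an unadjusted p under 0.05 limma gave 8 members and 2708 of all genes. By the point estimates, 14 of the 15 members that fell in WT cells had smaller falls in KO cells. Those 15 were picked by the same WT change that the interaction subtracts, so this count was favoured in advance and is no support. The median of the members was 0.24, beside 0.00 for all genes. That median was 0.01 without WT day 8 replicate 1 and 0.38 without replicate 2, where 1 and 10 members passed. The 1 was Rb1, and the 10 were Ccna2, Mcm3, Mcm5, Mcm7, Pcna, Plk1 and Bub1, with less negative changes in KO cells, and Ccnd3, Cdkn2c and Rbl2, with smaller rises. A difference between the genotypes in how far these genes fell therefore rests on which WT day 8 array is read. The number of all probe sets called changed with these fits too. In WT cells over time the members' median change was -0.37 with both arrays, -0.17 without replicate 1 and -0.53 without replicate 2. The size of the WT fall, and which members passed, thus depend on the WT day 8 array read too.

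The WT day 8 arrays also entered the comparisons at the other days, since all groups share 1 estimate of the spread. The counts that follow went with changes in the number of all probe sets called, so they are not read as particular to the members. At day 8, 6 members passed without WT day 8 replicate 1: Mcm5, Mcm7, Cdt1 and Plk1 higher and Cdkn2d and Rbl2 lower in KO cells. Without replicate 2, Top2a alone passed, lower in KO cells. At day 15 the count of 10 became 18 and 19 without either of these arrays, and the 10 remained among them. Left out in turn, WT day 15 replicate 1 and KO day 15 replicates 1 and 2 brought the count to 5, 4 and 5. In KO cells over time, a fit of the 4 KO arrays alone called 5 members lower (Ccne1, Mcm3, Mcm5, Gmnn and Cdc6), while the same kind of fit called 0 members in WT cells.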

How the data were processed

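RNA of 12 samples was hybridised to Affymetrix mouse arrays. The authors deposited linear intensities for 45101 probe sets per array, scaled between arrays, and MAS5 is the tool in the submitters' processing notes (version and settings: not given in the sources used here). Control probe sets, 64 in number, were left out. Values under 1 were set to 1 and log2 was taken. Of 45037 probe sets, 34945 carried 1 symbol, 932 several and 9160 none in the platform annotation, which can be old, and no gene was named from a probe set with several.

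A mean for each of the 6 groups was fitted to all 12 arrays with limma 3.58.1 (R 4.3.3, statmod 1.5.0), with intensity trend and robust moderation, and Benjamini-Hochberg adjustment across every probe set tested, at a threshold of 0.05. A gene was read from its brightest single-symbol probe set. Full statistics are given for members that passed, up to 10 in each direction by size, and up to 4 genes of each further list. The fit was also run on simulated data in which each probe set had the same spread in every group. That run cannot show how the fit behaves where replicate spread differs between groups. Members and lists were chosen with earlier results of these data known. No read depth exists for arrays, so the 2 arrays of each group limit the precision. Detection calls were not used, so dim values have no stated detection limit. Alternatives were another offset, normalization, centring, filter, moderation, set of arrays, test, call rule and choice of probe set, the replicate number as a block, and each array left out. Motifs were searched in RefSeq promoters (GRCm38.p6). Tables and plots were made in Python 3.11.15 with pandas 2.3.3, numpy 2.4.6 and matplotlib 3.10.9.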

Additional observations from a re-analysis of the deposited data

How the results depend on the processing

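No call of a member changed direction under any alternative run. The members' median difference, which has no test, changed sign at day 0 (-0.06, and 0.01 without KO day 0 replicate 2) and at day 8 (-0.08, and 0.066 without WT day 8 replicate 1). The count of members that passed at day 8, which was 1, was 0 after quantile normalization, with only the arrays compared, with only the 8 later arrays and by the methods' t-test. At day 15 the count of 10 was 0 by the methods' t-test after adjustment and 4 by the 1.8-fold rule, which has no test. In WT cells over time the count of 19 was 0 with only the arrays compared, 0 by the methods' t-test and 5 by the 1.8-fold rule. In KO cells the count of 0 was 5 with only the arrays compared and 1, Ccnd2, by the 1.8-fold rule. Of all probe sets, 1273 and 426 were called there, against 9 in the main fit. For the difference between the changes the count of 0 was 1, Cdkn2c, with the mean over a gene's probe sets. The fits with fewer arrays estimate the spread from fewer residuals and from those arrays alone. With only the arrays compared the WT count fell while the KO count rose. The cause of these and the other shifts was not tested. Unadjusted, the methods' t-test gave 5, 2, 12, 6 and 17 members at days 0, 8 and 15 and over time in WT and KO cells.

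With each of the 12 arrays left out in turn, the counts ran from 0 to 1 at day 0, 0 to 6 at day 8, 4 to 19 at day 15, 11 to 24 in WT cells over time, 0 to 2 in KO cells over time and 0 to 10 for the difference between the changes. The 1 at day 0 was Ccne1, without KO day 0 replicate 1, the 11 came without WT day 15 replicate 1, and the 2 were Mcm5 and Cdc6, without either WT day 8 array. The members' median for the difference between the changes ran from 0.014 to 0.38. A lone array left in a group was assumed to vary like the other groups, and the number of all probe sets called shifted under the same fits. The labels number replicates 1 and 2 in every group, but deviations of same-numbered arrays correlated only between -0.07 and 0.13, so the numbers were not taken as pairs. With the replicate block the counts were 0 at day 0, 2 at day 8 (Ccnd2 added), 9 at day 15, 17 in WT cells, 1 in KO cells (Ccnd2) and 0 for the difference. With 2 arrays in each group, members with wide spread, such as Ccnd2, Cdkn2a and Cdkn2b, could differ without passing.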
